A study of Homo sapiens with 8 samples.

Results

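The comparison set the BT474m1 library that received DMSO against the SKBR-3 library that received DMSO, 1 library on each side. Both are established human breast cancer cell lines with an amplified HER2 gene, and both were grown in RPMI with fetal bovine serum. DMSO is the solvent of the study's drugs, so that these are vehicle cultures, sampled after 48 h per the labels. SKBR-3 is negative and BT474m1 positive for the estrogen and progesterone receptors in the study's description. A gene was counted where its value was 100 or more in either library, which took 10977 of the 20531 genes in the tables. Each value is an estimated read count that the authors normalised, so that genes above 0 had an upper quartile of 1000 in every library. No correction for gene length was made. The series holds 8 libraries, since each line was also treated for 48 h with 300 nM lapatinib, with 300 nM JQ1 or with both. Lapatinib inhibits the EGFR and HER2 kinases, and JQ1 inhibits the BET bromodomain proteins.

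Each line derives from 1 tumour, so that it stands for no class of tumours. The line and the sequencing run cannot be told apart. With 1 library a side there was no spread between replicates, and no p-value is given. The 95% intervals beside log2 differences come from the read counts alone and cover counting error only.

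HER2, the product of ERBB2, is a receptor tyrosine kinase without a known ligand of its own that signals mainly in pairs with other ERBB receptors. Extra copies of a stretch of chromosome 17 raise it in a class of breast cancers, together with neighbours such as GRB7 and STARD3. The estrogen receptor, the product of ESR1, is a transcription factor that binds DNA with the help of FOXA1 and GATA3 in luminal cells. Its targets include the progesterone receptor PGR, GREB1 and the trefoil factors. Tumours with an amplified HER2 gene may carry or lack it.

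The depth was 34112367 reads on genes for BT474m1 with DMSO and 22082524 for SKBR-3 with DMSO, and 21420088 to 34112367 over the 8 libraries. The value of 1 read was 0.4715 in BT474m1 and 0.7158 in SKBR-3. The floor of 3 reads, under which a gene cannot be told from absent, was 1.41 and 2.15 in that order. Folds against a library without a read were computed against that floor and are lower bounds. The 10 markers of luminal breast cells all had values of 100 or more in both libraries, with 2 at least 2-fold higher in BT474m1 and 3 lower. EPCAM, the epithelial adhesion molecule used to sort such cells, was at 5774 in BT474m1 and 4518 in SKBR-3.

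Of the 10977 genes, 2391 (21.8%) were at least 2-fold higher in BT474m1 and 1519 (13.8%) at least 2-fold lower. The other 7067 genes (64.4%) lay less than 2-fold apart. These shares of 21.8% and 13.8% are the background of every list count that follows, and lists near them do not stand out. At 8-fold the counts were 743 higher and 292 lower, and at 32-fold 397 and 147. Scaling by the median of ratios in place of the upper quartile gave 2063 higher and 1857 lower. It shifted log2 differences down by up to 0.158, and by less for genes near 0 in a library. The median log2 difference (BT474m1 minus SKBR-3, on the log2(value + 1) scale) was 0.15 over all counted genes. Genes at 100 in only 1 library must tend to be higher in it, and there were 1189 of them in BT474m1 and 552 in SKBR-3. Among the 9236 genes at 100 or more in both libraries, 1338 (14.5%) were at least 2-fold higher in BT474m1 and 1054 (11.4%) at least 2-fold lower. Across the counted genes Pearson's r of the log2 values was 0.572 between the lines. Within a line it was 0.867 to 0.966 between the DMSO library and each treated library. These r values are across genes, which are not independent replicates. The genes were chosen by the DMSO libraries of both lines, and r between the lines moved with that limit. It was 0.73 with a limit of 10 and 0.327 with a limit of 1000. The r between the lines and the r within a line are therefore not on equal terms, and their gap may partly follow from the choice of genes.

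**Figure D1:**
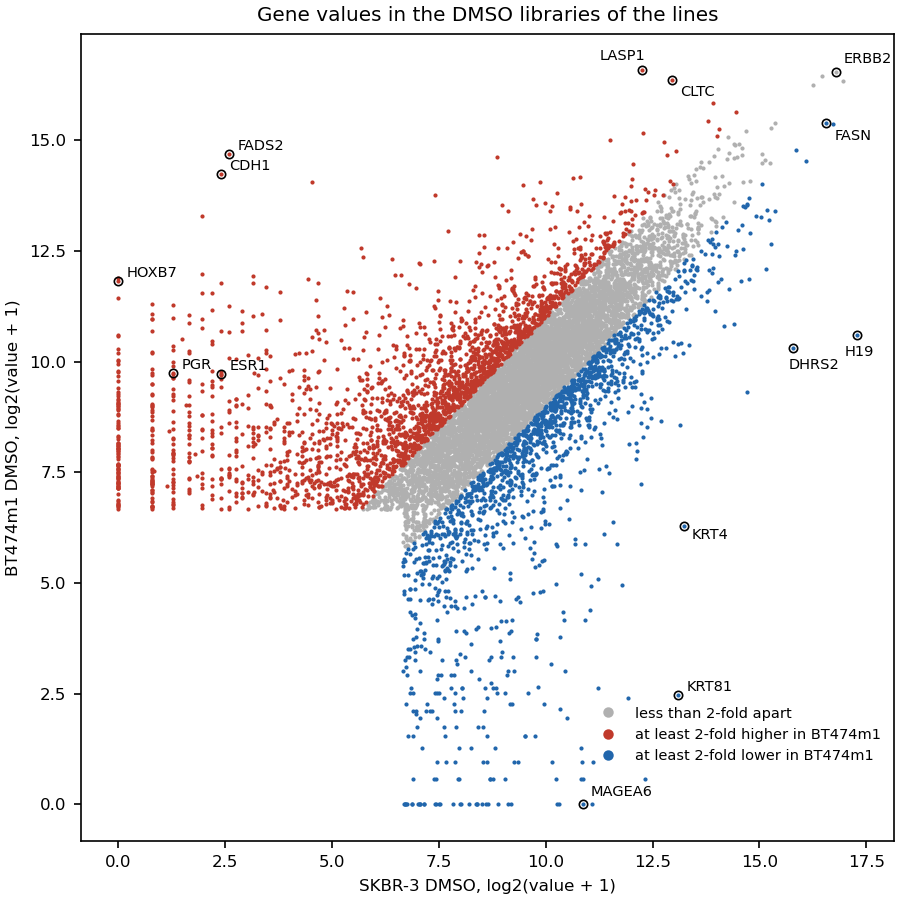
Values of the 10977 counted genes in SKBR-3 (horizontal axis) and BT474m1 (vertical axis), both with DMSO, as log2(value + 1), 1 point a gene. Red points are the 2391 genes at least 2-fold higher in BT474m1, blue points the 1519 at least 2-fold lower and grey points the rest. The columns of points at the left are genes with few or no reads in SKBR-3, such as HOXB7, and ERBB2 lies near the upper right corner.

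The largest differences were of genes present in one line and all but absent from the other. In BT474m1, 26 genes had a value of 1000 or more while SKBR-3 had at most 3 reads. In SKBR-3, 12 genes did so against BT474m1. For 19 of the 26 genes and 11 of the 12, all 4 libraries of the line without the gene had a value of 3 or less. The highest value among those libraries was 25.3 (CEACAM5 in SKBR-3 with lapatinib). At the lower limit of 100, 235 genes were at 3 reads or fewer in SKBR-3 and 63 in BT474m1.

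FADS2, the desaturase of the first step from essential fatty acids to long polyunsaturated ones, had the largest log2 difference among genes at 1000 or more. Its value was 26466 in BT474m1 and 5.01 in SKBR-3, a log2 difference of 12.10 (interval 11.32 to 13.68). KIF1A, a motor of axonal transport, was at 9975 and 2.86 (11.33, interval 10.41 to 13.64). ALOX15B, a lipoxygenase, was at 3795 in BT474m1 and had no read in SKBR-3, at least 1767-fold higher. SLC16A14, of the monocarboxylate transporter family, was at 2789 against 0, at least 1299-fold higher. IRX4, a homeobox factor, was at 1527 against 0 (at least 711-fold), and CXCL17, a mucosal chemokine, at 1254 against 0 (at least 584-fold). GPX1, a glutathione peroxidase found in most cells, was at 1991 in BT474m1 and had 1 read in SKBR-3, and was at 0 to 3.22 in the other SKBR-3 libraries. Its ratio was 2782 with an interval of 499 to 109888.

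On the SKBR-3 side GALNT17, a glycosyltransferase, was at 2160.3 against 0 in BT474m1, at least 1527-fold higher. FXYD5, a regulator of the sodium pump, was at 1269.9 against 0 (at least 898-fold), and OSBPL3, a lipid-binding protein, at 1223 against 0 (at least 865-fold). FBLN2, a matrix protein, was at 3907 in SKBR-3 and 4.24 in BT474m1, a log2 difference of -9.54 (interval -10.98 to -8.92). TMCO1, a calcium channel of the endoplasmic reticulum, was at 2380.2 in SKBR-3 and 5.19 in BT474m1 (-8.59, interval -9.85 to -8.0). REXO1L1P, a pseudogene of many near-identical copies between which reads are divided, was at 5097 in SKBR-3 with 1 read in BT474m1, and its value is uncertain. H19, an imprinted RNA that codes for no protein, was at 159004 in SKBR-3 and 1545 in BT474m1 (-6.68, interval -6.74 to -6.64). Its values in the treated libraries were 24475 to 169932 in SKBR-3 and 153 to 2778 in BT474m1, which do not overlap.

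Of 9 hormone receptors listed, 6 were counted, of which 4 were at least 2-fold higher in BT474m1 and 1 lower. ESR1 was at 840.2 in BT474m1 and 4.29 in SKBR-3, where it rested on 6 reads, a log2 difference of 7.31 (interval 6.49 to 9.06). PGR was at 858 and 1.43, the latter 2 reads, a ratio of 599 (interval 166 to 4953). Both differences have the direction of the stated receptor status. In the treated libraries ESR1 was at 189.9 to 1827 in BT474m1 and 1.93 to 16.8 in SKBR-3. PGR was at 251 to 12466 and 0 to 3.06.

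NR3C2, the mineralocorticoid receptor, was at 102 in BT474m1 and 38.7 in SKBR-3 (1.37, interval 0.96 to 1.86). NR3C1, the glucocorticoid receptor, was the member that was lower, at 372 in BT474m1 and 917 in SKBR-3 (-1.30, interval -1.43 to -1.17). Between the lapatinib libraries its difference was -0.72, and no hormone receptor was called lower.

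Among 42 listed estrogen receptor targets, 33 were counted and 18 had 100 or more in both lines. BT474m1 was at least 2-fold higher for 21 and lower for 6, with a median log2 difference of 1.89 beside 0.15 for all genes. GREB1, a cofactor of the receptor, was at 1676 in BT474m1 and 10 in SKBR-3 (7.25, interval 6.64 to 8.26). The trefoil peptides were at 1207 and 22.2 for TFF1 (5.70, interval 5.26 to 6.33) and at 3509 and 24.3 for TFF3 (7.11, interval 6.69 to 7.70). PRSS23, a secreted protease, was at 3909 and 7.87 (8.78, interval 8.12 to 9.96). IGFBP4, which binds insulin-like growth factors, was at 1880.2 and 6.44 (7.98, interval 7.26 to 9.32).

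Several targets with signalling roles followed the same pattern. The receptor tyrosine kinase RET was at 1343 in BT474m1 and 3.58 in SKBR-3 (8.20, interval 7.33 to 10.18). CXCL12, a chemokine, was at 239 against no read, at least 111-fold higher. STC2, a secreted glycoprotein, was at 461 against 3 reads, a ratio of 214 (interval 73.2 to 1042). In the 4 libraries of each line, 17 of the 33 targets lay wholly above in BT474m1 and 4 wholly below, beside 27.7% and 17.6% of all counted genes.

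The 6 targets that were lower in BT474m1 were RAB31, CTSD, CA12, ADCY9, CELSR2 and RARA. CTSD, the lysosomal protease cathepsin D, was at 4356 in BT474m1 and 36297 in SKBR-3 (-3.06, interval -3.09 to -3.03). RAB31, a small GTPase of vesicle transport, was at 67.4 and 2642 (-5.27, interval -5.54 to -5.05). CA12, a carbonic anhydrase, was at 223 and 1229.8 (-2.45, interval -2.61 to -2.31). CCND1, the cyclin D1 gene, lay less than 2-fold apart, at 6358 and 4989.

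Most luminal transcription factors were expressed in both lines. Of the 26 genes listed, which include the receptor PRLR beside the factors, 24 were counted and 21 had 100 or more in both, with 13 at least 2-fold higher in BT474m1, 3 lower and a median of 1.25. FOXA1 was at 12907 in BT474m1 and 5198 in SKBR-3 (1.31, interval 1.27 to 1.35), but the difference was 0.18 with lapatinib and 0.05 with both drugs. GATA3 was at 2412 and 1623, and the DNA-binding factor TFAP2C at 4481 and 5550.5, both less than 2-fold apart. TBX3, a T-box factor of mammary development, was at 4716 and 359 (3.71, interval 3.59 to 3.85). SOX11 was at 3066 and 12.9 (7.79, interval 7.23 to 8.65). PRLR, which binds prolactin, was at 16113 and 4054 (1.99, interval 1.95 to 2.03). TFAP2B, a relative of TFAP2C, was the member lowest in BT474m1, at 1.89 against 117 (-5.36, interval -7.85 to -4.58). For this list the counts were 8 higher and 6 lower between the lapatinib libraries.

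Apocrine cells are secretory cells marked by a set of secreted proteins. Of 36 genes on the apocrine list 24 were counted, and only 8 had 100 or more in both lines. BT474m1 was at least 2-fold higher for 14 and lower for 9. MUCL1, a small mucin, was at 2084 in BT474m1 and 7.87 in SKBR-3 (7.88, interval 7.21 to 9.05). LTF, the gene of lactoferrin, was at 960.4 against 2 reads, a ratio of 671 (interval 185 to 5543). SCGB2A2, the gene of mammaglobin, was at 1512 and 53 (4.81, interval 4.50 to 5.19), and at 1208 and 731 with lapatinib (0.72). Between the lapatinib libraries, and between those with both drugs, the apocrine list had 10 higher and 10 lower.

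In the other direction DHRS2, a dehydrogenase, was at 1266 in BT474m1 and 56702 in SKBR-3 (-5.48, interval -5.54 to -5.43). SERHL2 was at 32.8 and 2390.2 (-6.15, interval -6.54 to -5.84). The calprotectin subunits S100A8 and S100A9 were at 21.2 and 219.8, and at 19.8 and 2107 (-3.31, interval -3.86 to -2.92, and -6.66, interval -7.21 to -6.29). FKBP5, a chaperone induced by steroid receptors, was at 26.4 and 838 (-4.94, interval -5.40 to -4.60). The counted apocrine genes thus split between the lines, with 1 of the 24 (MUC1, at 510.1 and 444) less than 2-fold apart.

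ERBB2 itself differed little, at 95962 in BT474m1 and 112656 in SKBR-3 (-0.23, interval -0.24 to -0.22). In the treated libraries it was at 94678 to 118705 and 154570 to 277872, higher in SKBR-3 in each treated pair. ERBB3, its usual partner, was at 5557 and 3623 (0.62), and EGFR at 1632 and 2769 (-0.76). ERBB4 was at 229 and 27.9 (2.99, interval 2.56 to 3.55). Of 15 counted ERBB receptors and regulators, 3 were at least 2-fold higher in BT474m1 (ERBB4, LRIG1 and LRIG3) and 2 lower, shares near the 21.8% and 13.8% of all genes, with a median of 0.33. LRIG1 was not called between the JQ1 libraries (0.63) or those with both drugs (0.17). The 2 lower ones were ubiquitin ligases that act on ERBB receptors. CBL was at 366 and 1514 (-2.04, interval -2.17 to -1.93). CBLC had 1 read in BT474m1 and a value of 245 in SKBR-3, a ratio of 519 (interval 92.6 to 20568).

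Only 2 of the 11 EGF family ligands were counted, 1 in each direction. TGFA was at 263 in BT474m1 against no read in SKBR-3, at least 123-fold higher. EGF was at 39.1 in BT474m1 and 311 in SKBR-3 (-2.96, interval -3.35 to -2.65).

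Genes around ERBB2 differed in both directions. Of 28 genes listed for the 17q12 amplicon and its flanks 23 were counted, 6 at least 2-fold higher in BT474m1 and 9 lower. All genes had 21.8% and 13.8%. The median of the list was -0.23, and its members ran from -3.45 to 5.77. Both of these extremes lay between GRB7 and ORMDL3, so that higher and lower genes were not cleanly grouped. Next to ERBB2, STARD3 was at 11722 in BT474m1 and 6514 in SKBR-3 (0.85), GRB7 at 6477 and 5154 (0.33) and MIEN1 at 5917 and 5737 (0.04). MIEN1 overlaps the end of ERBB2 on the opposite strand, so that reads of the pair may not be told apart. PGAP3 was at 5526 and 2137 (1.37, interval 1.31 to 1.43), and ORMDL3 at 12563 and 4113 (1.61, interval 1.57 to 1.65).

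CDK12, a kinase of transcription elongation, was at 9472 in BT474m1 and 38088 in SKBR-3 (-2.01, interval -2.03 to -1.98). A run of genes beyond THRA was also lower in BT474m1. MSL1 was at 1385 and 8037 (-2.54, interval -2.60 to -2.48), CASC3 at 2347 and 10007 (-2.09, interval -2.14 to -2.05) and WIPF2 at 1267 and 7150.3 (-2.50, interval -2.56 to -2.43). TOP2A, the topoisomerase that anthracyclines target, was at 5974 and 24959 (-2.06, interval -2.09 to -2.03). MSL1, CASC3 and WIPF2 were lower in all 4 BT474m1 libraries than in all 4 of SKBR-3, as were 17.6% of all genes. TOP2A was at 338 and 347 in the libraries with both drugs.

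A second block of chromosome 17 set the lines further apart. Of 24 genes listed for 17q23, 22 were counted and 20 were at least 2-fold higher in BT474m1, none lower, with a median of 3.46. The exceptions were NACA2 at 349.8 and 645 (-0.88) and INTS2 (0.78). CLTC, the clathrin heavy chain, was at 84604 in BT474m1 and 7943 in SKBR-3 (3.41, interval 3.39 to 3.44). PPM1D, a phosphatase that restrains p53, was at 1754 and 142 (3.62, interval 3.42 to 3.84). RPS6KB1, the S6 kinase, was at 5793 and 703 (3.04, interval 2.95 to 3.14), and TRIM37 at 7266 and 745 (3.28, interval 3.19 to 3.38). For these 4 genes all 4 BT474m1 libraries were above all 4 of SKBR-3. So it was for 20 of the 22 counted genes of the list and for 27.7% of all genes. LASP1, a focal adhesion protein whose gene lies on the other side of ERBB2 on chromosome 17, was at 97839 and 4858 (4.33, interval 4.30 to 4.37).

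Other regions that are often amplified in breast cancer had medians nearer 0 than 17q23. In the 20q13 list 32 genes were counted, 7 at least 2-fold higher in BT474m1 and 4 lower, shares near the 21.8% and 13.8% of all genes, with a median of -0.05. PREX1, an activator of Rac, was at 1852 in BT474m1 and 21664 in SKBR-3 (-3.55, interval -3.60 to -3.50), while ZNF217 lay close, at 5133 and 4936. BCAS4 was at 3340.4 and 482 (2.79, interval 2.68 to 2.91). In the 8q24 list 20 were counted, 3 higher and 7 lower, with a median of -0.81. MYC was at 463 in BT474m1 and 2143 in SKBR-3 (-2.21, interval -2.32 to -2.11), and at 2312 and 1349.9 in the lapatinib libraries. DERL1, a protein of the endoplasmic reticulum, was at 2258 and 16036 (-2.83, interval -2.87 to -2.78), and NDRG1 at 1325 and 10378 (-2.97, interval -3.03 to -2.91). In the 11q13 list 7 were counted, 3 at least 2-fold higher in BT474m1 and none lower, with a median of 0.84. DNA copy number was not measured in these files.

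The same was done without a list, by the median difference of each 11 neighbouring counted genes in RefSeq order, which gave 10710 windows of 10940 genes. The median over windows was 0.14, the 1st percentile -1.57 and the 99th 2.72. Neighbouring windows share genes, so that the windows named here were taken not to overlap. The 3 highest windows were a pair on chromosome 19 (medians of 8.25 and 7.58) and 1 on chromosome 17 (6.49). With genes at 3 reads or fewer in 1 of the libraries set to their bounds these medians were 7.14, 6.47 and 6.16. The lowest was on chromosome X (-7.50, or -6.99 with bounds), followed by windows on chromosome 8 (-2.56) and chromosome 3 (-2.47).

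**Figure D2:**
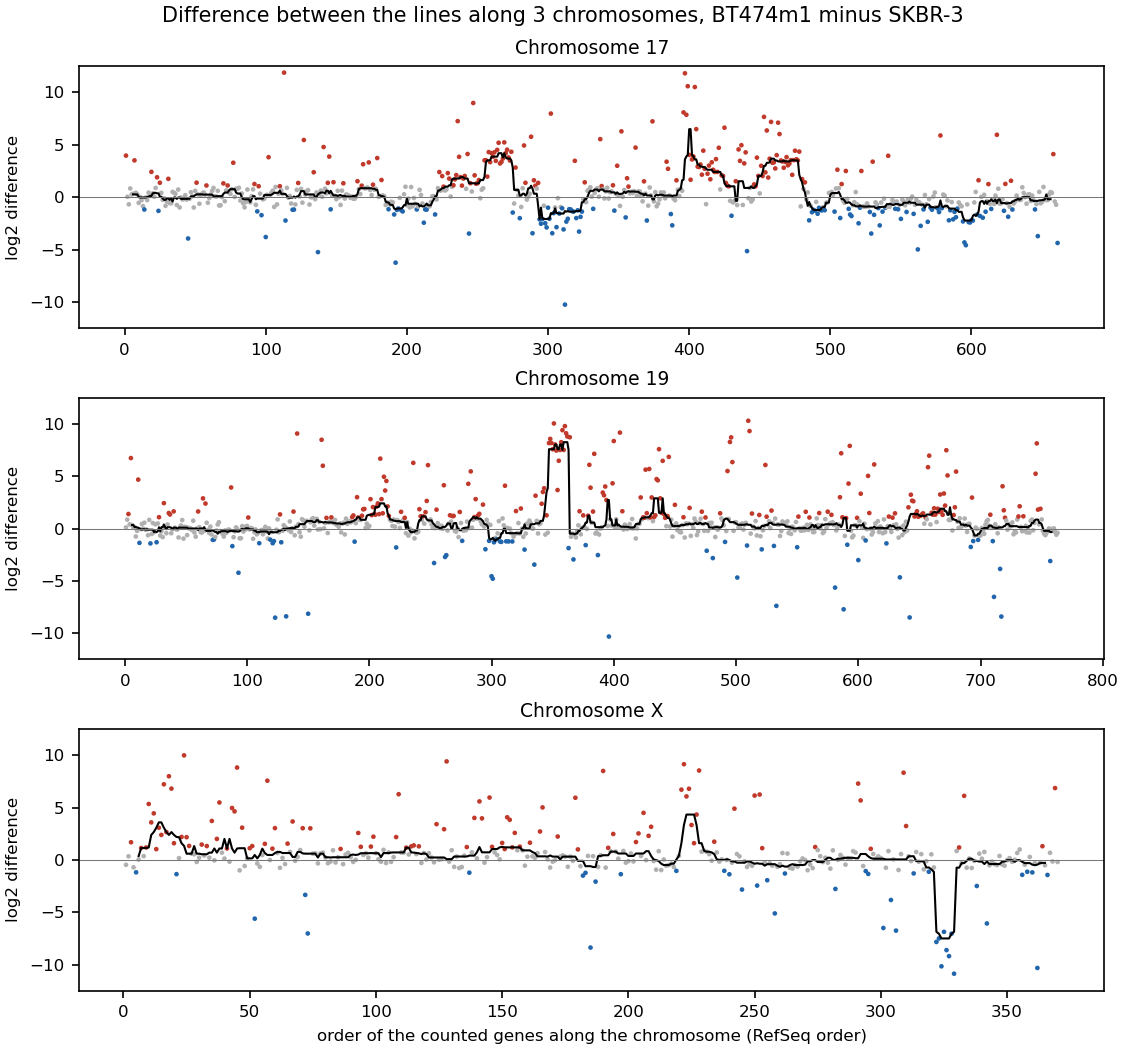
The log2 difference (BT474m1 minus SKBR-3, DMSO) of each counted gene along chromosomes 17, 19 and X, by order and not by distance, with the median of 11 neighbouring genes as a black line. Red points are at least 2-fold higher in BT474m1 and blue points at least 2-fold lower. The line reaches 6.49 on chromosome 17, 8.25 on chromosome 19 and -7.50 on chromosome X.

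The chromosome 19 windows held 20 zinc finger genes named ZNF, which belong to a large cluster of DNA-binding repressors with KRAB domains that arose by repeated duplication. ZNF91, which represses a class of retrotransposons, was at 877 in BT474m1 and had no read in any of the 4 SKBR-3 libraries, at least 408-fold higher. ZNF714 was at 1049 (at least 488-fold), ZNF626 at 377 (at least 175-fold) and ZNF85 at 287 (at least 134-fold), each again without a read in all 4 SKBR-3 libraries. ZNF43 was at 672 against 0 (at least 313-fold), and at 0 to 1.38 in the treated SKBR-3 libraries. Within the same windows ZNF90 went the other way, at 1304 in BT474m1 and 1944 in SKBR-3 (-0.58, interval -0.65 to -0.50). ZNF486 was at 275 and 114 (1.26, interval 1.01 to 1.53). The 2 windows also held RPSA2 and ACTR2P2, which resemble genes elsewhere and are uncertain.

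The stretches of 150 bases before the annotated start of 4 of these genes are shown, because they are alike in genes that SKBR-3 lacked and in ZNF90, which it expressed. They are RefSeq sequences of GRCh38.p14, read 5′ to 3′ on the strand of the gene, and the capitals mark TCCAATCAG. The windows are chr19:21082053-21082202 for ZNF714, chr19:23395472-23395621 for ZNF91, chr19:21836183-21836332 for ZNF43 and chr19:20077850-20077999 for ZNF90. ZNF714 and ZNF90 are on the + strand and ZNF91 and ZNF43 on the - strand.
ZNF714: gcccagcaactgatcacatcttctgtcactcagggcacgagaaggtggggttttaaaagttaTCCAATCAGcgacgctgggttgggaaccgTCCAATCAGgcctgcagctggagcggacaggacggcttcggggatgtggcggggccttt
ZNF91: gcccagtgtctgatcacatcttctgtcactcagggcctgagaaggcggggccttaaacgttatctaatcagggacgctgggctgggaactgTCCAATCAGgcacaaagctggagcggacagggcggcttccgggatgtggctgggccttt
ZNF43: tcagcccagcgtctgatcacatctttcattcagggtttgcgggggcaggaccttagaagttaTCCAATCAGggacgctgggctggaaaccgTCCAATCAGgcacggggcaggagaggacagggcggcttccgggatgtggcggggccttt
ZNF90: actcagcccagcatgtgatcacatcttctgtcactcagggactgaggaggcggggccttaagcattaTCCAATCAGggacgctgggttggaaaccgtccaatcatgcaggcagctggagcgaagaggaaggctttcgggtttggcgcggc
A script chose the 9 letters TCCAATCAG as the run most shared by these promoters, so that their frequency in them is a description. They contain the letters CCAAT. Within 250 bases before the start, on either strand, they stood in all 18 ZNF genes of the windows for which RefSeq gave a promoter. They stood in 53 of 252 ZNF promoters of chromosome 19 (21%), 19 of 256 ZNF promoters elsewhere (7.42%) and 278 of 27305 promoters of all genes (1.02%). A match is not a site of binding.

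ZNF genes as a family were looked at after their values were seen. On chromosome 19 but outside these windows, 81 of 154 counted ZNF genes (52.6%) were at least 2-fold higher in BT474m1 and 2 (1.3%) lower, with a median of 1.06. At 3 reads or fewer in SKBR-3 were 10 of them. Elsewhere 70 of 196 (35.7%) were higher and 7 lower, with a median of 0.68. Of the other 589 counted genes on chromosome 19, 105 (17.8%) were higher and 62 (10.5%) lower. Reads of near-identical zinc finger genes may be divided between them, which touches each single value.

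The window of chromosome 17 held HOXB genes, homeobox factors that set position along the body axis. HOXB7 was at 3635 in BT474m1 and had no read in any SKBR-3 library, at least 1693-fold higher. HOXB13 was at 1546 against 0 (at least 719.9-fold), HOXB6 at 272 (at least 127-fold) and HOXB9 at 232 (at least 108-fold). These 4 were the counted members of the 10 HOXB genes. None of 12 HOXA and 9 HOXD genes was counted in either line. Of the 9 HOXC genes 6 were counted, 5 at least 2-fold higher in BT474m1 and 1 lower. HOXC10 was at 1405 and 319 (2.13, interval 1.99 to 2.29), and HOXC13 at 287 and 987 (-1.78, interval -1.92 to -1.64). The neighbours of HOXB13 were also higher, among them CALCOCO2, an autophagy receptor, at 6197 and 377 (4.04, interval 3.91 to 4.17), and UBE2Z, at 12315 and 1013 (3.60, interval 3.53 to 3.68).

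The window of chromosome X held cancer testis genes, which are silent in most adult tissues outside the testis and return in some tumours. MAGEA6 was at 1860.4 in SKBR-3 and without a read in all 4 BT474m1 libraries, at least 1315-fold higher in SKBR-3. MAGEA3 was at 2221 against 2 reads, a ratio of 2355 (interval 652 to 19459). MAGEA2 was at 582 (at least 411-fold) and MAGEA12 at 389.8 (at least 276-fold), both against 0 in all 4 BT474m1 libraries. The neighbours that code for subunits of GABA receptors followed, with GABRA3 at 227 in SKBR-3 (at least 160.4-fold) and GABRQ at 179.7 (at least 127-fold). Of 26 cancer testis genes found, 6 were counted, and 5 of the 6 were lower in BT474m1. CTAG2, the fifth, was at 1876 against 1 read. CTCFL, a testis relative of CTCF, lay less than 2-fold apart, at 699.6 in BT474m1 and 660.5 in SKBR-3.

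The 150 bases before the start of MAGEA3 (chrX:152698644-152698793, + strand, GRCh38.p14, RefSeq) are shown with each CG in capitals, because those of MAGEA6 (chrX:152769690-152769839, - strand) are the same in all 150 positions.
MAGEA3: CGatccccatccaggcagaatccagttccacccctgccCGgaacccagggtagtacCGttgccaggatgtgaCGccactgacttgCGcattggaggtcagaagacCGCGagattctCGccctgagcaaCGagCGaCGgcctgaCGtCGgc
They hold 13 CG. Reads of so like a pair may be divided between them, and the value of each is uncertain. None of 10 promoters found for this window held TCCAATCAG.

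On chromosome 8 ATAD2, a chromatin protein that rises in dividing cells, was at 3739 in BT474m1 and 27812 in SKBR-3 (-2.89, interval -2.93 to -2.86). Its neighbour ZHX1 was at 1171 and 9496 (-3.02, interval -3.08 to -2.96). On chromosome 3 MYD88, the adaptor of Toll-like receptors, was at 252 and 4511 (-4.16, interval -4.29 to -4.03), and ACAA1, a thiolase of peroxisomes, at 424 and 5682 (-3.74, interval -3.84 to -3.64). For ZHX1, MYD88 and ACAA1 all 4 BT474m1 libraries were below all 4 of SKBR-3, as for 17.6% of all genes.

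CDH1, the gene of E-cadherin, which holds epithelial cells together at adherens junctions, was at 19414 in BT474m1 and 4.29 in SKBR-3, where it had 6 reads (11.84, interval 11.02 to 13.59). In the treated libraries it was at 21432 to 24373 and 2.58 to 15.1. CDH3, the gene of P-cadherin, was at 979.7 against no read in any SKBR-3 library, at least 456-fold higher. Their catenin partner CTNNB1 was present in both lines, at 5017 and 4332, and CTNNA1 at 9849.6 and 18148 (-0.88). Of 19 counted genes of adherens junctions and desmosomes, 4 were at least 2-fold higher in BT474m1 and 5 lower, with a median of -0.17. Of 25 counted genes of tight junctions and epithelial state, 4 were higher and 5 lower. All genes had 21.8% higher and 13.8% lower. Between the lapatinib libraries the counts were 4 higher and 8 lower for the first list, and 2 and 9 for the second. All genes had 22.4% and 15.4% there. ESRP1, a splicing factor of epithelial cells, was at 6889 and 809 (3.09, interval 3.0 to 3.18).

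Keratins, the intermediate filaments of epithelia, were lower in BT474m1. Of 29 listed 10 were counted, and 7 of them were at least 2-fold lower (13.8% of all genes were), none higher, with a median of -1.32. KRT81, a hair keratin, was at 4.55 in BT474m1 and 8792 in SKBR-3 (-10.63, interval -11.93 to -9.99). KRT4, of stratified epithelia, was at 76.9 and 9591 (-6.95, interval -7.20 to -6.74). KRT8 and KRT18, the pair of simple epithelia, were at 28237 and 59145, and at 13169.8 and 27539 (-1.07, interval -1.08 to -1.05, and -1.06, interval -1.09 to -1.04). KRT86 is nearly identical to KRT81, so that its values of 14.7 and 419.9 are uncertain. For 9 of the 10 counted keratins all 4 BT474m1 libraries were below all 4 of SKBR-3, as for 17.6% of all genes.

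Of 27 mesenchymal genes 10 were counted, 3 of them in both lines, with 5 at least 2-fold higher in BT474m1, 4 lower and a median of 1.79. VIM, the filament of mesenchymal cells, was at 204 in BT474m1 and without a read in SKBR-3, at least 95-fold higher. The transcription factor TWIST1 was at 222 against 1 read, a ratio of 310.2 (interval 55.4 to 12279), and the matrix protein TNC at 843 against 2 reads (589, interval 163 to 4863). FN1, the gene of fibronectin, was at 146 and 1179.7 (-3.01, interval -3.20 to -2.84). Of 15 counted integrins and laminins, 4 were higher, near the 21.8% of all genes, and 4 lower. ITGA6, which binds laminin, was at 873 and 4.29 (7.37, interval 6.54 to 9.12).

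Of 23 counted genes of fatty acid synthesis 9 were at least 2-fold higher in BT474m1 and 5 lower, with a median of 0.35. FASN, which builds palmitate, was at 42713 in BT474m1 and 96318 in SKBR-3 (-1.17, interval -1.19 to -1.16), and ACLY, which supplies its acetyl groups, at 6653 and 14779.5 (-1.15, interval -1.18 to -1.12). ACACA, the carboxylase ahead of FASN, was at 18109 and 1584 (3.51, interval 3.45 to 3.58). Of the desaturases other than FADS2, FADS3 lay close, at 143 and 122 (0.23). FADS1, the neighbour of FADS2, was at 2432 and 5.01 (8.66, interval 7.88 to 10.24), and SCD5 at 530.4 against no read (at least 247-fold). SCD was at 58336 and 15512 (1.91, interval 1.89 to 1.93), and at 7451 and 9920.4 with lapatinib.

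Of 24 sterol synthesis genes 23 were counted, 13 at least 2-fold higher in BT474m1 and none lower, with a median of 1.07. HMGCS1, the synthase that commits acetyl units to the pathway, was at 12075 in BT474m1 and 1801 in SKBR-3 (2.74, interval 2.69 to 2.80). INSIG1, which holds the sterol sensor in the endoplasmic reticulum, was at 3174 and 594 (2.42, interval 2.31 to 2.52). TM7SF2, a sterol reductase, was at 3124 and 313 (3.32, interval 3.18 to 3.46). Between the lapatinib libraries the counts of this list were 5 higher and 3 lower. Between those with JQ1 they were 11 and 0, and between those with both drugs 10 and 0.

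Of 27 counted genes of glycolysis and lactate, 13 were at least 2-fold lower in BT474m1 and 5 higher, beside 13.8% and 21.8% of all genes, with a median of -0.83. SLC2A1, the glucose transporter GLUT1, was at 1364 in BT474m1 and 9156 in SKBR-3 (-2.75, interval -2.81 to -2.69). SLC16A3, which exports lactate, was at 136 and 1804 (-3.72, interval -3.91 to -3.56). The lactate dehydrogenase genes were at 9954 and 30835 for LDHA (-1.63, interval -1.66 to -1.61) and at 1259 and 6653 for LDHB (-2.40, interval -2.46 to -2.34). ALDOC, an aldolase, was at 7.07 and 616 (-6.26, interval -7.29 to -5.71). SLC2A10, another member of the transporter family, was at 2671 and 179 (3.89, interval 3.72 to 4.09). SLC2A1, SLC16A3, LDHA, LDHB and ALDOC were lower in all 4 BT474m1 libraries than in all 4 of SKBR-3. So were 13 of the 27 counted genes of the list and 17.6% of all genes.

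Of 15 counted genes of MHC class I presentation 4 were at least 2-fold higher in BT474m1, near the 21.8% of all genes, and none lower. HLA-C was at 6074 in BT474m1 and 50 in SKBR-3 (6.90, interval 6.58 to 7.28), and HLA-B at 772 and 51.3 (3.89, interval 3.56 to 4.27). Reads of HLA genes depend on the alleles a line carries and are shared between loci, so that these 2 values are uncertain. TAP1, a peptide transporter subunit, was at 579 and 454. Of 48 interferon-stimulated genes 22 were counted, 9 at least 2-fold higher in BT474m1 and 4 lower, with a median of 0.73. MX2 was at 347 against 3 reads, a ratio of 162 (interval 55.2 to 786), and PARP14 at 697 and 20.8 (5.0, interval 4.54 to 5.65). IFITM2 was at 5.28 and 905 (-7.17, interval -8.45 to -6.60), and LGALS3BP at 377 and 9089 (-4.59, interval -4.70 to -4.49).

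Of 14 counted genes that MAPK signalling drives, 6 were at least 2-fold higher in BT474m1 and 2 lower, with a median of 0.95. DUSP6, the phosphatase that restrains ERK, was at 1109.8 in BT474m1 and 10.7 in SKBR-3 (6.56, interval 5.97 to 7.53). ETV5, a factor of the ETS family, was at 619 against 2 reads, a ratio of 432 (interval 119 to 3572), and DUSP4 at 8114 and 1105 (2.88, interval 2.80 to 2.95). EGR1, an immediate early gene, was at 59.9 and 225 (-1.89, interval -2.22 to -1.61). With both drugs DUSP6 was at 16.3 and 7.57, and DUSP4 at 1089.8 and 1347. ETV5 was at 6.63 in BT474m1 with lapatinib and at 24.1 in SKBR-3 with both drugs, so that its values overlapped between the lines.

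Of 27 counted PI3K pathway genes 7 were at least 2-fold higher in BT474m1 and 2 lower, with a median of 0.43, beside 21.8% and 13.8% of all counted genes. The 7 include INPP4B, a lipid phosphatase that limits the pathway, at 1425 and 35.8 (5.28, interval 4.91 to 5.75). IRS2, an adaptor of insulin receptors, was at 132 and 7.16 (4.03, interval 3.30 to 5.28). PIK3CD, a catalytic subunit, was at 7.09 and 133 (-4.05, interval -5.10 to -3.48). Of 23 counted receptor tyrosine kinases outside the ERBB family, 7 were higher and 5 lower, beside the same shares. FGFR4 was at 3736 and 859 (2.12, interval 2.03 to 2.21), and FGFR2 at 43.8 and 961 (-4.42, interval -4.77 to -4.15). Of 16 counted Notch genes 4 were higher and 1 lower, a share of higher genes near that of all genes. LFNG, which modifies the receptors, was at 3979 and 88 (5.48, interval 5.24 to 5.77).

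Most cell cycle genes lay less than 2-fold apart. All 36 listed proliferation genes were counted, with 1 at least 2-fold higher in BT474m1, 4 lower and a median of -0.08. The higher one was CCNE2, a cyclin of the entry into S phase, at 1542 and 232 (2.73, interval 2.57 to 2.91). MKI67, the gene of the Ki-67 antigen, was at 2739.8 and 8462 (-1.63, interval -1.67 to -1.58), while the mitotic kinase AURKA was at 6030.2 and 5110.2. The treated pairs stood further apart for this list, with 1 higher and 17 lower for lapatinib, 1 and 14 for JQ1, and 15 and 1 for the combination. Of 15 counted G1 cyclins and CDK inhibitors 1 was higher and 6 lower, among them CDKN2A at 67.7 and 311 (-2.18, interval -2.48 to -1.92) and RBL1, a relative of RB1, at 83.9 and 1017 (-3.58, interval -3.83 to -3.37).

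Smaller lists are given by their counts, to be read beside the 21.8% higher and 13.8% lower of all genes. Of 12 counted BET proteins and elongation factors 3 were at least 2-fold higher in BT474m1 and none lower, and with both drugs none was called. Of 14 counted BCL2 family genes 6 were higher and 1 lower. BIK, which promotes cell death, was at 336 and 48 (2.78, interval 2.44 to 3.19). Of 22 counted ABC transporters 5 were higher, a share near that of all genes, and 8 lower, with ABCC3, a conjugate exporter, at 5291 and 52.3 (6.63, interval 6.33 to 7.01). Of 13 counted enzymes of steroids and xenobiotics 6 were higher and 1 lower. Of 11 counted retinoid genes 2 were higher and 4 lower. ALDH1A3, which makes retinoic acid, was at 117 and 1438 (-3.61, interval -3.82 to -3.44).

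Markers of other cell types were mixed, with most leukocyte and endothelial markers low and some basal markers high. The summed value of 15 leukocyte markers was 33.95 in BT474m1 and 287 in SKBR-3 with DMSO, with CD3D, CD2, MS4A1 and NKG7 at 0 in both. Over the 4 libraries of each line it ran from 33.95 to 129.5 and from 223.6 to 467.8. CD68, a lysosomal marker of macrophages, was the 1 leukocyte marker counted, at 11.8 and 178. For 9 endothelial markers the sums were 290.4 and 408 (86.3 to 290.4 and 190.5 to 408 over 4 libraries), with PECAM1 and TEK at 0, and 3 were counted, 1 higher in BT474m1 and 2 lower. For 11 fibroblast markers they were 1395 and 604.2 (406.4 to 1395 and 106.6 to 604.2), with LUM at 0 and COL1A1 at 1253 and 124, and 1 of the 2 counted was higher and 1 lower. For 14 basal and myoepithelial markers they were 3628 and 2902 (3628 to 4472 and 2868 to 3694), with KRT14 and CNN1 at 0. Of the 3 counted, EGFR was above 100 in both lines, while CDH3 and ITGA6 were so in BT474m1 only. The part of these values in the mesenchymal genes, interferon-stimulated genes and S100A8 and S100A9 was not tested.

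The 6 treated libraries give the same lines again under drugs. They share no library with the DMSO pair but are not replicates of it, since their treatment differs. Between the lapatinib libraries 2463 of the 10977 genes (22.4%) were at least 2-fold higher in BT474m1 and 1693 (15.4%) lower. Between the JQ1 libraries the counts were 2555 (23.3%) and 1643 (15%), and between those with both drugs 2966 (27%) and 1573 (14.3%). Of the 2391 genes higher with DMSO, 1854 (77.5%) were at least 2-fold higher with lapatinib, 2080 (87%) with JQ1 and 1876 (78.5%) with both. In all 3 treated pairs it was 1651 (69.1%). Of the 1519 lower genes, 1165 (76.7%), 1245 (82%) and 1018 (67%) were at least 2-fold lower in the same order, and 908 (59.8%) in all 3.

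Of the 10977 genes 3041 (27.7%) had all 4 BT474m1 libraries above all 4 SKBR-3 libraries, and 1930 (17.6%) all 4 below. Among the 2391 higher genes 1943 (81.3%) were of the first kind, and among the 1519 lower genes 1126 (74.1%) of the second. The DMSO libraries that chose these genes are among the 4, so that the shares are a description. Few genes turned to a 2-fold difference in the other direction. Of the 2391 there were 6 for lapatinib, 4 for JQ1 and 11 for the combination, and of the 1519 there were 6, 4 and 30. Of the 152 genes named here and called with DMSO, the call was lost or turned in 12 with lapatinib, in 7 with JQ1 and in 13 with both. Those with lapatinib were ADCY9, DUSP4, EGR1, FOXA1, HMGCS1, MYC, NR3C1, POLR2J2, RARA, SCD, SCGB2A2 and ZNHIT2. Those with JQ1 were CBLN2, CELSR2, LRIG1, ORMDL3, POLR2J2, ZNF486 and ZNHIT2. With both drugs they were CBLN2, CELSR2, DUSP4, EGR1, FOXA1, LRIG1, MKI67, NDRG1, POLR2J2, SCD, TOP2A, ZNF486 and ZNHIT2. ZNHIT2 stood farthest from its DMSO difference in the JQ1 pair, at 0 and 104 with DMSO and at 157 and 0 with JQ1. Its values in the other libraries were 415.1 and 414.5 in BT474m1 and 14.1 and 216 in SKBR-3, so that each line held values both high and low.

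**Figure D3:**
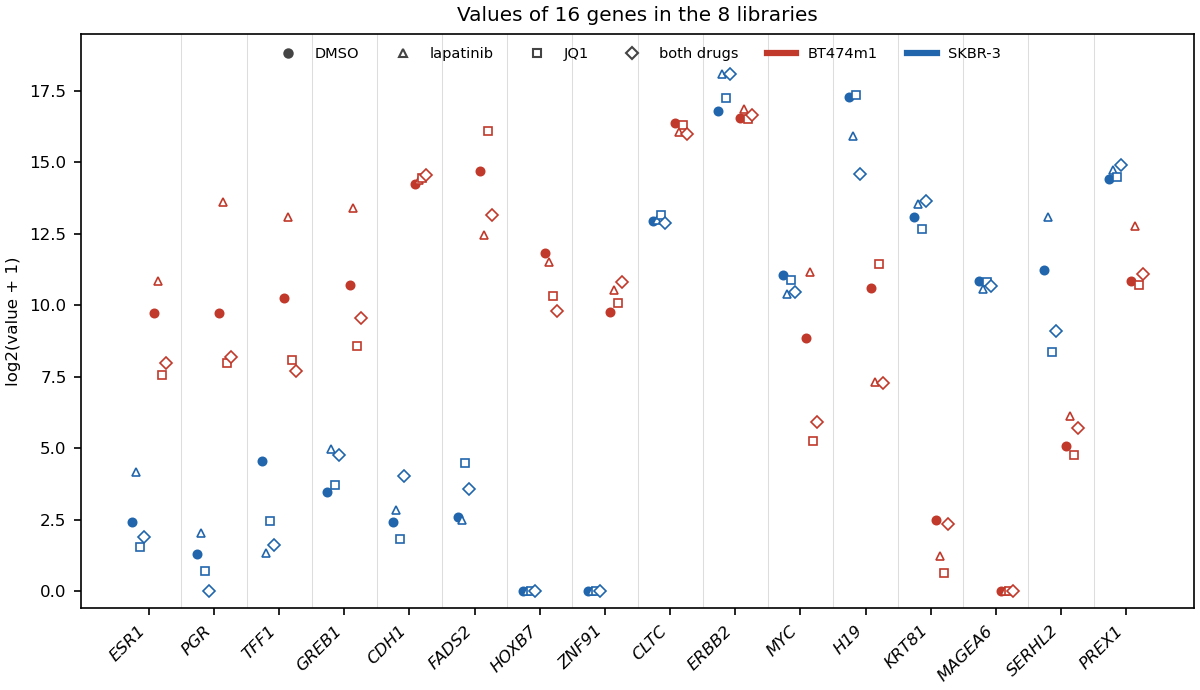
Values of 16 genes in all 8 libraries as log2(value + 1), with BT474m1 in red and SKBR-3 in blue. Filled circles are DMSO, triangles lapatinib, squares JQ1 and diamonds both drugs. ESR1, PGR, CDH1 and FADS2 are higher in every BT474m1 library, KRT81, MAGEA6 and PREX1 in every SKBR-3 library, and the values of ERBB2 and MYC overlap between the lines.

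**Figure D4:**
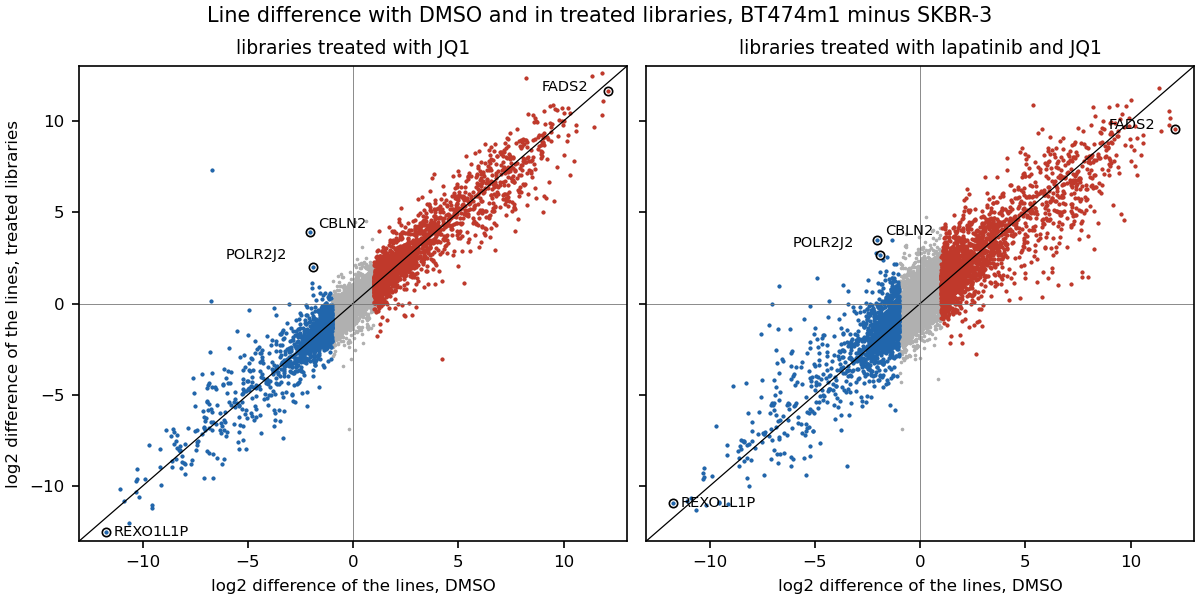
The log2 difference between the lines (BT474m1 minus SKBR-3) with DMSO on the horizontal axis against that in the JQ1 libraries (left) and in the libraries with both drugs (right), 1 point for each of the 10977 genes. Red and blue points are at least 2-fold higher and lower in BT474m1 with DMSO, grey points are closer, and the diagonal marks equal differences. Most coloured points keep their side of 0, and CBLN2 and POLR2J2 are marked in the upper left, where the direction turned. The unmarked blue point at the top left of the left panel is ZNHIT2.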

How the data were processed

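Poly(A) RNA of 8 cultures was sequenced, 1 library for each of 2 lines with DMSO, lapatinib, JQ1 or both, and groups were taken from the labels. Each deposited file holds 1 signal for every gene: the authors estimated read counts with RSEM, on hg19 per the submitters' processing notes, and scaled them to an upper quartile of 1000 among genes above 0. The study's methods name another assembly and aligner, and the labels name 2 library kits, of which 1 keeps the strand. It is therefore uncertain whether antisense reads were separated, and no gene coordinates are given beyond those of the RefSeq promoters, which carry their own build.

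The value of 1 read was recovered as the common step of the values. With it 83.6% to 85.0% of values above 0 were whole reads within 0.02, in libraries of 21420088 to 34112367 reads. Differences are of log2(value + 1) in genes at 100 or more in either DMSO library, and 2-fold was the limit of a call. Intervals (95%, Clopper-Pearson, on recovered reads) and the floor of 3 reads cover counting error only, since no molecular identifiers marked PCR copies. Current symbols and gene order come from RefSeq (GRCh38.p14), matched by Entrez identifier for 20372 genes (99.2%).

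The comparison and the 38 gene lists (950 members, 947 found) were chosen with earlier results of these data known. The genes named were list members, the 15 largest differences in each direction among genes at 1000 or more, the 10 highest genes of each library, the genes of the 3 highest and 3 lowest windows, and genes at 1000 or more against at most 3 reads. LASP1 and other genes outside a list come from these rules, and HOXC10, HOXC13, CBLN2, POLR2J2 and ZNHIT2 were chosen after their values were seen. Genes that show sex were left out, and some list members are not reported here. Alternatives were a pseudocount of 10, other scalings, limits of 10 and 1000, an interval rule, the treated pairs and, added after seeing the data, whole-read genes only. Values were computed in Python 3.11.15 with pandas 2.3.3, numpy 2.4.6 and scipy 1.17.1, plotted with matplotlib 3.10.9, and the steps were tested on simulated data.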

Additional observations from a re-analysis of the deposited data

Results flagged for a closer look

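In 2 genes the lines differed by at least 2-fold in one direction with DMSO and in the other in both pairs of libraries that received JQ1. CBLN2, a secreted synaptic organiser, was at 54.2 in BT474m1 and 228 in SKBR-3 with DMSO, a log2 difference of -2.05. With JQ1 it was at 82.1 and 4.51, a log2 difference of 3.92. With lapatinib the difference was -2.21 and with both drugs 3.51. POLR2J2, a subunit of RNA polymerase II, was at 150.2 and 570.0 with DMSO, a log2 difference of -1.92, and at 482 and 120.3 with JQ1, a log2 difference of 1.99. With lapatinib it was 0.28 and with both drugs 2.64. POLR2J2 has near-identical copies between which reads may be divided, and its value is uncertain. With 1 library per group neither difference between the pairs was tested.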

How the results depend on the processing

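No paired analysis was possible because the DMSO comparison has 1 library a side and no replicate numbers, so that none of its libraries could be left out. A fit of the line over the 4 pairs of equal treatment was not run, and each pair is given on its own. The counts of 2391 higher and 1519 lower genes were 2343 and 1482 with a pseudocount of 10, 2337 and 1567 with equal totals, 2063 and 1857 with the median of ratios, and 2067 and 1319 where the counting interval had to exclude a smaller difference. They were 1940 and 1245 among whole-read genes, an alternative chosen after seeing the data. With a limit of 10 they were 3566 and 2161, since more genes were tested, and with a limit of 1000 they were 868 and 724, since fewer were. Pearson's r was 0.65 with a pseudocount of 10, 0.73 with a limit of 10 and 0.327 with a limit of 1000. It was 0.627 between the JQ1 libraries and 0.661 between those with both drugs. Among named genes at least 2-fold apart with DMSO, the direction turned between the lapatinib libraries for EGR1 (2.20), MYC (0.78), SCD (-0.41), POLR2J2 (0.28) and ZNHIT2 (4.78), and RARA came to 0.00. Among the same genes it turned with JQ1 for CBLN2 (3.92), POLR2J2 (1.99) and ZNHIT2 (7.31), and with both drugs for CBLN2 (3.51), POLR2J2 (2.64), DUSP4 (-0.31), MKI67 (0.29) and ZNHIT2 (0.94). Named genes closer than 2-fold with DMSO, such as GATA3 and MUC1, were not counted here. The cause was not tested. The balance of a list turned in 12 cases. These include 20q13, with 6 higher and 8 lower with JQ1, and the ABC transporters, with 7 and 5 with lapatinib. They also include the ERBB list, with 2 and 8 with both drugs, and proliferation, with 15 and 1. Genes under 3 reads could not be told from absent.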
